A study of Mus musculus with 6 samples.

Results

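The CXC chemokines described here are 9 genes of small secreted or membrane-bound attractants, *Cxcl1*, *Cxcl2*, *Cxcl5*, *Cxcl9*, *Cxcl10*, *Cxcl12*, *Cxcl13*, *Cxcl14* and *Cxcl16*. They were taken by gene symbol from an RNA-Seq table of 15280 genes. RNA came from single mammary tumors of 3 parous BK5.ATF3 transgenic female mice and from the adjacent normal mammary gland of the same 3 mice. The BK5 promoter, from the bovine keratin 5 gene, drives ATF3 in basal epithelial cells, and both tissues of each mouse carried this transgene. The females had borne 1 litter, tumors appeared at an age of 6 to 12 months, and tissue was taken once a tumor was 1.5 cm long. No gland without the transgene was part of the comparison, which therefore sets tumor against adjacent gland within transgenic animals. Libraries are named by tissue (M, normal gland; T, tumor) and by mouse, in the pairs M11035 and T11035, M11640 and T11640, and M9232 and T9232.

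Chemokines guide migrating cells by binding G-protein-coupled receptors on them, and CXC chemokines carry a single residue between their first pair of cysteines. Those with the residues Glu-Leu-Arg just before these cysteines act on Cxcr2 and attract neutrophils, and are quickly induced by interleukin 1 and NF-kB in inflamed tissue. *Cxcl9* and *Cxcl10* are interferon-induced ligands of Cxcr3, the receptor of activated T and NK cells. *Cxcl12*, *Cxcl13* and *Cxcl14* are grouped here as homeostatic ligands, and Cxcl16 is a transmembrane ligand of Cxcr6 that proteases can shed.

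The Glu-Leu-Arg signature can be read in the transcripts. The windows of 30 coding bases that follow come from the GENCODE vM1 annotation of mm9. They are shown because they set the Glu-Leu-Arg genes apart from the rest. Capitals mark the codons of the first pair of cysteines and, where present, the Glu-Leu-Arg codons before them.
Cxcl1: gccaatGAGCTGCGCTGTcagTGCctgcag
Cxcl2: gccagtGAACTGCGCTGTcaaTGCctgaag
Cxcl5: gcaacgGAGCTGCGTTGTgttTGCttaacc
Cxcl10: gcaaggacggtccgcTGCaacTGCatccat
Cxcl12: agcctgagctaccgaTGCcccTGCcggttc
Cxcl16: agtgtcgctggaagtTGTtctTGTgatcgt
The triplet was found in 3 of the 9 genes, *Cxcl1*, *Cxcl2* and *Cxcl5*. With the longest coding sequence taken for each gene, the encoded proteins ranged from 96 residues (Cxcl1) to 246 residues (Cxcl16, which has a mucin-like stalk and a membrane anchor). Shorter transcripts of these genes were not compared.

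Of the 9 genes, 6 (*Cxcl1*, *Cxcl2*, *Cxcl5*, *Cxcl10*, *Cxcl14* and *Cxcl16*) were higher in tumors and 1 (*Cxcl12*) was lower, as differentially expressed genes (DEGs, false discovery rate at most 0.05 and fold change of at least 2). *Cxcl9* and *Cxcl13* were not called. DEGs made up 28.2% of all genes tested, 14.5% higher and 13.7% lower in tumors. In 6 of the 9 genes all 3 tumors lay above all 3 glands, against 27.6% of all genes, and in 1 gene (*Cxcl12*) all tumors lay below all glands, against 26.3% of all genes. All values are CPM, fragment counts scaled to the effective library size, and fold changes are differences of the mean log2(CPM + 0.5), tumor minus normal gland, with the standard error (SE). Adjusted p-values are from limma over 15280 genes.

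**Figure D1:**
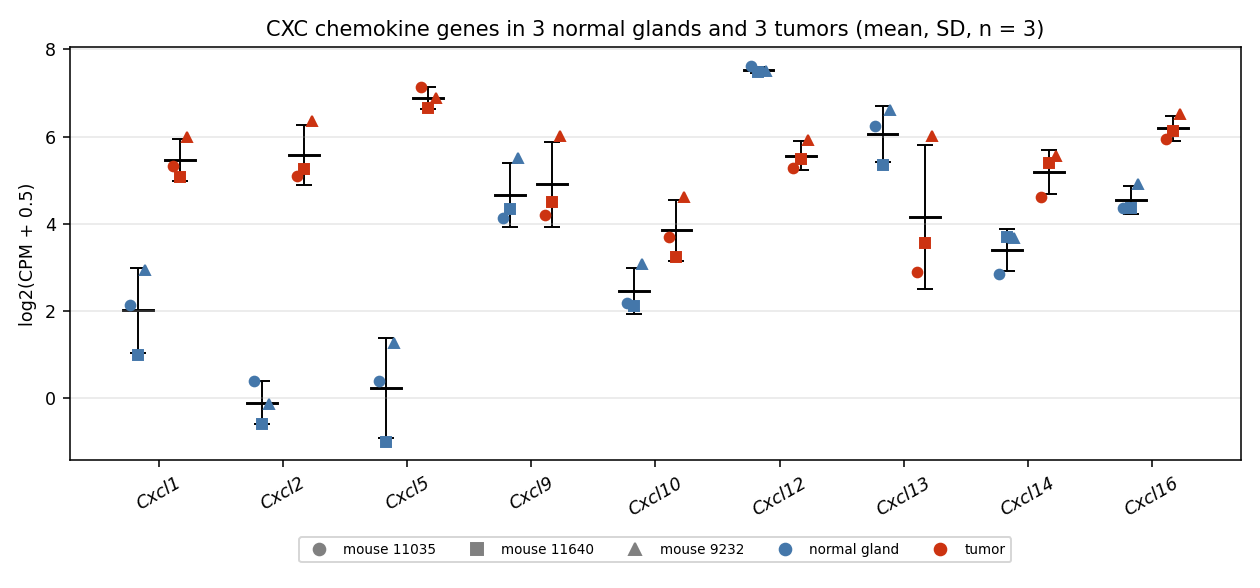
Level of each CXC chemokine gene as log2(CPM + 0.5) in the 3 normal glands (blue) and the 3 tumors (red), where the symbol shape gives the mouse and bars give the mean and SD (n = 3). The groups are apart for 7 genes and overlap for *Cxcl9* and *Cxcl13*.

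The libraries held 4750989 to 7806908 fragments on genes, so that 3 fragments, taken as the detection floor, equal 0.393 to 0.610 CPM. Marker genes differed widely between the tissues. Adipocyte markers summed to 6381 to 11880 CPM in glands and 253 to 407 CPM in tumors (9 of 9 fell), and squamous epithelial markers to 7.52 to 9.58 CPM in glands and 2719 to 4454 CPM in tumors (10 of 10 rose). Of 9 mammary epithelial markers, all above the floor in every gland, 5 rose (*Krt14* the most, 5.75) and 3 fell, *Elf5* (-2.59), *Pgr* (-2.51) and *Esr1* (-2.13). Glands M11035 and M11640 also held skeletal muscle transcripts, whose markers summed to 3745 and 1481 CPM against 4.24 CPM in M9232 and 7.34 to 14.1 CPM in tumors. With gland M9232 alone set against the 3 tumors, 4 CXC genes stayed higher and 1 lower, while *Cxcl10* (adjusted p = 0.367) and *Cxcl14* (adjusted p = 0.0518) were no longer called. In tissue RNA, fewer cells of a type and less RNA per cell cannot be told apart. *Atf3* itself ran from 4.47 to 22.6 CPM in glands and from 13.4 to 19.3 CPM in tumors, with a log2 fold change of 0.80 (SE 0.49, adjusted p = 0.223), and was called higher in 1 of the 16 other settings, without gland M9232. Whether its fragments came from the transgene or the mouse gene was not tested.

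The neutrophil-attracting ligands showed the largest increases among the 9 genes. *Cxcl5*, a Cxcr2 ligand made mainly by epithelial cells, had 0.813 CPM in gland M11035, 0 in M11640 and 1.92 CPM in M9232, whereas their paired tumors T11035, T11640 and T9232 measured 141, 99.9 and 117 CPM. The glands thus held at most 14 fragments of this gene each, and the tumors 760 to 780. Means were 0.909 ± 0.961 CPM in glands and 119 ± 20.9 CPM in tumors (SD, n = 3), with a log2 fold change of 6.67 (SE 0.50, adjusted p = 2.3e-05). Because gland counts were so low, this value moved with the pseudocount, from 6.10 at 1 CPM to 7.70 at 0.1 CPM.

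*Cxcl2*, which is released rapidly by stimulated macrophages and epithelia, measured 0.813, 0.165 and 0.410 CPM in the glands and 33.9, 37.5 and 82.0 CPM in the tumors. The 3 glands together held 8 fragments and the 3 tumors 1015, so every tumor was far above every gland. The log2 fold change was 5.68 (SE 0.39, adjusted p = 1.65e-05), and it ranged from 5.06 to 6.56 with the pseudocount. On recovered fragments it was larger, at 6.80 with edgeR and 6.86 with DESeq2.

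*Cxcl1*, the closest relative of *Cxcl2* among the 9, was already detectable in glands at 3.86, 1.49 and 7.11 CPM. It reached 39.8, 33.0 and 63.2 CPM in the tumors, and the lowest tumor exceeded the highest gland. Means of 4.15 ± 2.82 and 45.4 ± 15.9 CPM (SD, n = 3) gave a log2 fold change of 3.45 (SE 0.46, adjusted p = 5.29e-04). Within mice the log2 ratio was 3.21, 4.08 and 3.07 from T11035, T11640 and T9232 over their paired glands. All 3 neutrophil-attracting genes remained DEGs under each of 16 other settings, which included leaving out each library. With gland M9232 alone the log2 fold changes were 2.54 for *Cxcl1*, 5.71 for *Cxcl2* and 5.62 for *Cxcl5*.

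**Figure D2:**
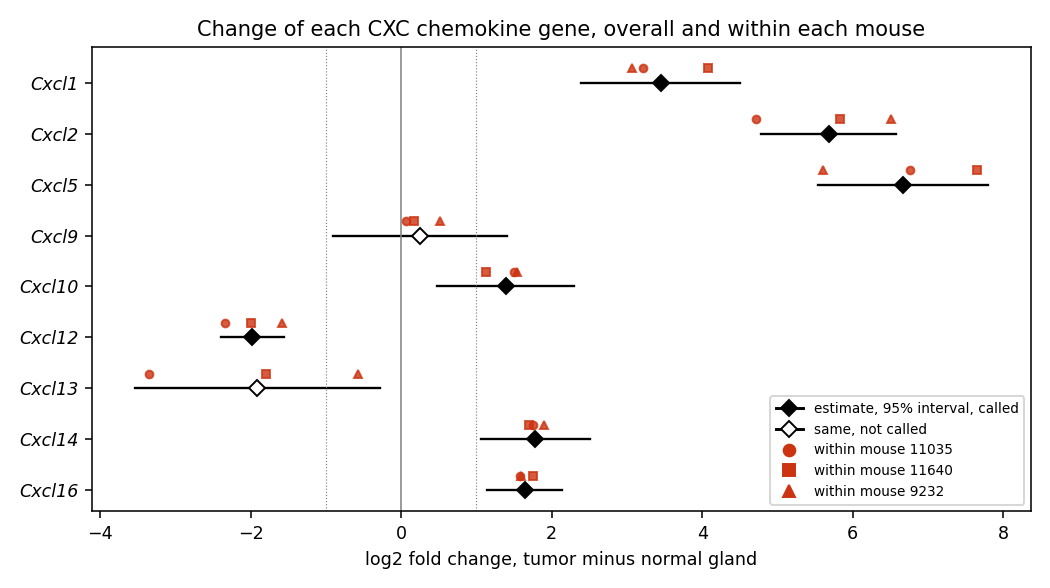
Log2 fold change of each CXC chemokine gene, tumor minus normal gland, with its 95% interval (diamonds, filled where the gene was called) and the log2 ratio within each mouse (red symbols). Dotted lines mark a fold change of 2 in either direction, and the ratios of *Cxcl13* spread from -3.35 to -0.58.

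These genes lie close together. *Cxcl5* (chr5:91188325-91190651), *Cxcl1* (chr5:91320267-91322141) and *Cxcl2* (chr5:91332897-91334935) are on the plus strand of mm9, with *Cxcl3*, *Cxcl15*, *Pf4* and *Ppbp* between *Cxcl5* and *Cxcl1*. Of these neighbors of the same family, *Cxcl3*, a further Cxcr2 ligand, did not pass the detection floor in any gland (0.203, 0 and 0.274 CPM). It measured 15.4, 17.8 and 26.5 CPM in tumors (adjusted p = 1.14e-05), and with the mean gland floor in place of the gland level the mean over tumors was at least 39.4-fold higher. *Cxcl15*, known as lungkine, went the other way, from 21.6, 19.8 and 11.6 CPM in glands to 4.47, 0.655 and 0.599 CPM in tumors (log2 fold change -3.25, SE 0.56, adjusted p = 0.00213), a call lost with gland M9232 alone (adjusted p = 0.0957). The platelet chemokine genes *Pf4* (0.32, adjusted p = 0.561) and *Ppbp* (-0.57, adjusted p = 0.395) were not called. Outside the cluster, *Rassf6* on the side of lower coordinates fell (-1.48, adjusted p = 0.00116), and *Mthfd2l* on the other side had a log2 fold change of 0.87, under the fold threshold.

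Transcripts of *Cxcl2* and *Cxcl3* were 90.1% identical over 354 bp, those of *Cxcl1* and *Cxcl2* 78.1% identical over 347 bp, and those of *Cxcl1* and *Cxcl3* 76.1% identical over 330 bp. How the authors' alignment divided reads between *Cxcl2* and *Cxcl3* in such stretches is uncertain, although both genes were higher in tumors.

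Promoters of this cluster are shown because *Cxcl1*, *Cxcl2* and *Cxcl3* all rose and because NF-kB is the textbook inducer of the group. The following 130 bases, each ending at the base before the RefSeq gene start (GRCm38.p6, plus strand), carry in capitals each match to GGGNNTTTCC on either strand.
Cxcl1 (chr5:90891115-90891244): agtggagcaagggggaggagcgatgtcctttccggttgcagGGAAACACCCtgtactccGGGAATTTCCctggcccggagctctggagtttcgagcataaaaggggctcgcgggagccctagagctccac
Cxcl2 (chr5:90903769-90903898): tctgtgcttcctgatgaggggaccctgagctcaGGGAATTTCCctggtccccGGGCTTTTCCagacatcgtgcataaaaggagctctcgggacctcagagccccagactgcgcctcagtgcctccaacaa
Cxcl3 (chr5:90785971-90786100): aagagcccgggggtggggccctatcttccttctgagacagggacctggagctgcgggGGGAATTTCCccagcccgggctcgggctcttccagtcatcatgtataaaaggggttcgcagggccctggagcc
Such a match was present in the 250 upstream bases of 464 of 32851 RefSeq promoters (1.41%). *Cxcl1* and *Cxcl2* were the members with a match among the 7 whose promoter could be looked up. The promoters of *Cxcl5* and *Cxcl16* could not be looked up. Those of *Cxcl15*, *Pf4* and *Ppbp* had no match. Only these letters were searched, so other forms of an NF-kB site are not marked, in *Cxcl10* or elsewhere. A match describes the letters in the window and is not a measured binding site.

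The receptor and known inducers of these ligands were measured in the same libraries. *Cxcr2*, the receptor for Cxcl1, Cxcl2 and Cxcl5, measured 35.0, 23.8 and 57.0 CPM in glands and 91.2, 97.2 and 182 CPM in tumors. All tumors exceeded all glands, and the gene rose by a log2 fold change of 1.68 (SE 0.35, adjusted p = 0.0055), a call that was lost with gland M9232 alone (adjusted p = 0.14). Of 10 inducer genes analysed, a list that includes receptors of inducers, 4 rose and none fell as DEGs. The receptor genes *Il17ra* (-0.93, adjusted p = 0.023) and *Il1r1* (0.94, adjusted p = 0.00139) moved in opposite directions under the fold threshold. *Il1b*, which encodes interleukin 1 beta, went from 6.16 to 10.2 CPM in glands to 251 to 376 CPM in tumors (log2 fold change 5.24, adjusted p = 1.81e-06). *Ptgs2*, encoding cyclooxygenase 2 (4.75, adjusted p = 4.9e-06), *Il1a* (3.87, adjusted p = 4.75e-04) and *Il6* (3.45, adjusted p = 2.39e-04) rose as well, whereas *Tnf* had a log2 fold change of 0.71 (adjusted p = 0.0883). The median over the inducers was 1.09, against -0.003 over all genes. Among 11 genes of NF-kB subunits and inhibitors, 2 rose, *Bcl3* (1.37) and *Nfkbiz* (1.24), both encoding nuclear IkB proteins, and none fell. Over all genes 14.5% were called higher and 13.7% lower, so 2 of 11 higher is near the share over all genes. The list median was 0.25, and the subunit genes *Rela* (0.49) and *Nfkb1* (0.01) were not called.

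Markers of neutrophils did not all point one way beside these ligands. Of 12 markers analysed, 7 rose and 3 fell, with a median log2 fold change of 1.61 and sums of 239 to 640 CPM in glands and 901 to 1525 CPM in tumors. Those that rose were *Csf3r*, *Fpr1*, *Fpr2*, *Mmp8* and *Cxcr2*, which serve mature neutrophils, and *S100a8* and *S100a9*, which stressed keratinocytes also express. *S100a8*, for example, went from 5.78 to 16.9 CPM in glands to 182 to 226 CPM in tumors (4.34, adjusted p = 2.9e-05). The genes that fell encode granule proteins made early in neutrophil maturation, *Mpo* (-1.96), *Ngp* (-2.96) and *Ltf* (-2.97), the last also a mammary secretory product. *Mpo* was at 0 in tumor T11640. The remaining markers, *Camp* (-1.07, adjusted p = 0.131) and *Retnlg* (-0.78, adjusted p = 0.204), were not called. Without *S100a8* and *S100a9* the other 10 markers summed to 214, 212 and 608 CPM in M11035, M11640 and M9232, and to 250, 245.5 and 410 CPM in T11035, T11640 and T9232. The tissues then overlapped, and gland M9232 was the highest. Of these sums, *Ltf* held 103, 148 and 500 CPM in M11035, M11640 and M9232. In T11035, T11640 and T9232 it held 44.85, 22.3 and 14.8 CPM. Apart from *Ltf*, the remainder was higher in every tumor than in every gland. In T11035, T11640 and T9232 its largest parts were *Cxcr2* (91.2, 97.2 and 182 CPM) and *Csf3r* (73.7, 59.5 and 103 CPM). The remainder thus in large part repeats the rise of *Cxcr2* given above and does not show a rise of neutrophil markers in general. Of 11 macrophage markers 2 rose and 1 fell, with a median of 0.57. The part of any of these cells in the chemokine values was not tested.

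The interferon-induced ligands behaved differently from each other. *Cxcl9*, which depends strongly on interferon gamma, measured 17.1, 19.7 and 44.9 CPM in glands and 17.9, 22.3 and 64.4 CPM in tumors, so the groups overlapped. In both tissues the same mouse was the highest (M9232 and T9232). The log2 fold change was 0.25 (SE 0.51, adjusted p = 0.721), with a 95% interval from -0.90 to 1.41, which leaves room for a change of more than 2-fold upward. Its sign turned when gland M11035 (-0.01), or tumor T9232 (-0.30), was left out, and with gland M9232 alone (-0.59).

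*Cxcl10*, which responds to both type I interferon and interferon gamma, measured 4.07, 3.80 and 7.93 CPM in glands and 12.5, 8.91 and 23.98 CPM in tumors. The lowest tumor lay just above the highest gland. The log2 fold change was 1.39 (SE 0.40, adjusted p = 0.0225), and the ratios within mice were alike at 1.51, 1.13 and 1.54. The call was lost when M11035, M11640, T11035 or T9232 was left out (adjusted p = 0.0594, 0.069, 0.0535 and 0.0775). *Cxcl10* shares exonic bases with *Art3*, which fell from 105 to 8.97 CPM (-3.45, adjusted p = 8.04e-06), and the library kit did not keep strand, so fragments in the shared stretch cannot be assigned with certainty.

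The lists that accompany these ligands differed. Of 12 type I interferon targets 11 rose and none fell (median 2.01), among them *Isg15*, a ubiquitin-like antiviral protein, from 2.44 to 5.78 CPM in glands to 50.4 to 101 CPM in tumors. Of 16 genes of interferon gamma signaling and its targets none rose and 3 fell (median -0.53), namely *Ciita* (-1.93), the master regulator of MHC class II, *Gbp4* (-1.90) and *Irf8* (-1.63). The receptor of both ligands, *Cxcr3*, measured 4.68, 3.14 and 5.75 CPM in glands and 0.372, 0.524 and 0.899 CPM in tumors, and fell (-2.19, SE 0.35, adjusted p = 0.0013). T cell markers summed to 244 to 625 CPM in glands and 35.5 to 56.9 CPM in tumors, with 12 of 12 lower. Of 10 NK and cytotoxic cell markers 9 fell, with *Gzmb* (0.30) as the exception. The share of these cells in the *Cxcr3* values was not tested.

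The upstream window of *Cxcl10* is shown because the gene was called higher and is an interferon-induced ligand. Matches to GAAANNGAAA (an interferon-stimulated response element) and TGANTCA (the AP-1 motif) are in capitals. It covers bases 230 to 51 before the gene start on the minus strand of GRCm38.p6.
Cxcl10 (chr5:92348940-92349119): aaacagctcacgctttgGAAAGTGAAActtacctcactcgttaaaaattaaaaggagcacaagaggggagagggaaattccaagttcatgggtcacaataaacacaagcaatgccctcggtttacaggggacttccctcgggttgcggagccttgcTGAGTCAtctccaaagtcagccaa
The first motif occurred in 2.98% and the second in 6.75% of the 32851 promoters, counting both strands of the 250 upstream bases. Besides *Cxcl10*, *Cxcl14* held the first motif, and it also held TTCNNNGAA (7.02% of promoters). The windows of *Cxcl9*, *Cxcl12* and *Cxcl13* contained none of the motifs searched, which also included TGACGTCA (1.55% of promoters), a palindrome that ATF-family factors can bind.

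The homeostatic ligands moved in both directions. *Cxcl12*, the stromal ligand of Cxcr4 that retains stem and immune cells in tissues, measured 196, 179 and 181 CPM in glands and 38.2, 44.6 and 59.9 CPM in tumors. Its gland libraries were closer together than those of the other 8 genes, with an SD of 0.07 on the log2 scale, against a median of 0.28 over genes. Means of 185 ± 9.11 and 47.6 ± 11.2 CPM (SD, n = 3) gave a log2 fold change of -1.98 (SE 0.18, adjusted p = 7.03e-05), and *Cxcl12* remained lower under each of the 16 other settings. *Cxcr4*, its signaling receptor, had overlapping levels of 10.9 to 39.5 CPM in glands and 24.2 to 49.0 CPM in tumors (0.68, adjusted p = 0.264), and was called higher when gland M9232 was left out. *Cxcr7*, its scavenging receptor, was not called either (-0.41, adjusted p = 0.403). Among markers of cells that can express *Cxcl12*, 9 of 9 adipocyte markers and 3 of 8 endothelial markers fell, and 5 of 10 fibroblast markers rose, *Col1a1* the most (4.63). *Pdgfra*, a fibroblast receptor gene, had a log2 fold change of -0.23 (adjusted p = 0.561). Their part in the *Cxcl12* values was not tested.

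*Cxcl13*, the Cxcr5 ligand that draws B cells into follicles, measured 75.0, 40.5 and 96.6 CPM in glands and 6.89, 11.3 and 64.6 CPM in tumors. T11035 and T11640 were below every gland, while T9232 exceeded gland M11640. The log2 fold change was -1.91 (SE 0.71, adjusted p = 0.0611), with a 95% interval from -3.54 to -0.28, and the gene was not called. It was lower in the tumor of all 3 mice, by log2 ratios of -3.35, -1.80 and -0.58, and with mouse as a replicate block it passed the test (-1.91, SE 0.46, adjusted p = 0.0166). Without T9232 it was also called, at -2.84 (adjusted p = 0.00224), and over all 16 other settings the adjusted p ran from 0.00224 to 0.28. Without T11035 it was at -1.27 (adjusted p = 0.196).

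*Cxcr5* measured 10.8, 3.80 and 7.52 CPM in glands and 0.372, 0.524 and 0.749 CPM in tumors, and fell (-2.82, SE 0.40, adjusted p = 6.92e-04). B cell markers summed to 366 to 918 CPM in glands and 19.0 to 20.6 CPM in tumors, and 11 of 11 fell, *Ms4a1* (CD20) the most (-6.10). In tumor T9232, where *Cxcl13* was high, they summed to 19.6 CPM, near the other tumors. *Pax5* was at 0 in T9232 and also in T11640. Of 9 genes of lymphoid tissue signals 4 fell, *Cr2* (-4.97), *Fcer2a* (-4.80), *Ccr7* (-2.64) and *Lta* (-1.79), and *Tnfsf11*, encoding RANKL, rose (1.39). *Cr2* and *Fcer2a* are also among the B cell markers.

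*Cxcl14*, a chemokine of epithelia and skin, measured 6.71, 12.4 and 12.2 CPM in glands and 23.8, 41.4 and 46.8 CPM in tumors, without overlap. The log2 fold change was 1.78 (SE 0.32, adjusted p = 0.00249), and the ratios within mice lay between 1.70 and 1.90. Unlike the chromosome 5 genes it lies at chr13:56390008-56397912, and neither neighboring gene of the table, *Tifab* (0.29) or *Slc25a48* (0.68), was called. *Cxcl12* lies at chr6:117118553-117131385 and *Cxcl13* at chr5:96385945-96390086.

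*Cxcl16*, the transmembrane ligand and scavenger receptor for oxidized lipid, measured 20.1, 20.2 and 29.6 CPM in glands and 61.4, 68.9 and 90.5 CPM in tumors. The lowest tumor was well above the highest gland, and the log2 fold change was 1.64 (SE 0.22, adjusted p = 5.01e-04). The gene (chr11:70267485-70273486, minus strand) shares 552 bp of exon with *Zmynd15*, which had 4.79 CPM in glands and 8.04 CPM in tumors and was not called (0.68, adjusted p = 0.0613). Its receptor gene *Cxcr6* stayed under the fold threshold at -0.68 (adjusted p = 0.0383). Of 6 genes of proteases that trim or shed CXC ligands 3 rose, *Mmp9* (3.54), *Mmp14* (2.64) and *Mmp8* (1.54), and none fell. The main sheddase of Cxcl16, *Adam10*, had a log2 fold change of 0.74 (adjusted p = 0.00453), also under the fold threshold.

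**Figure D3:**
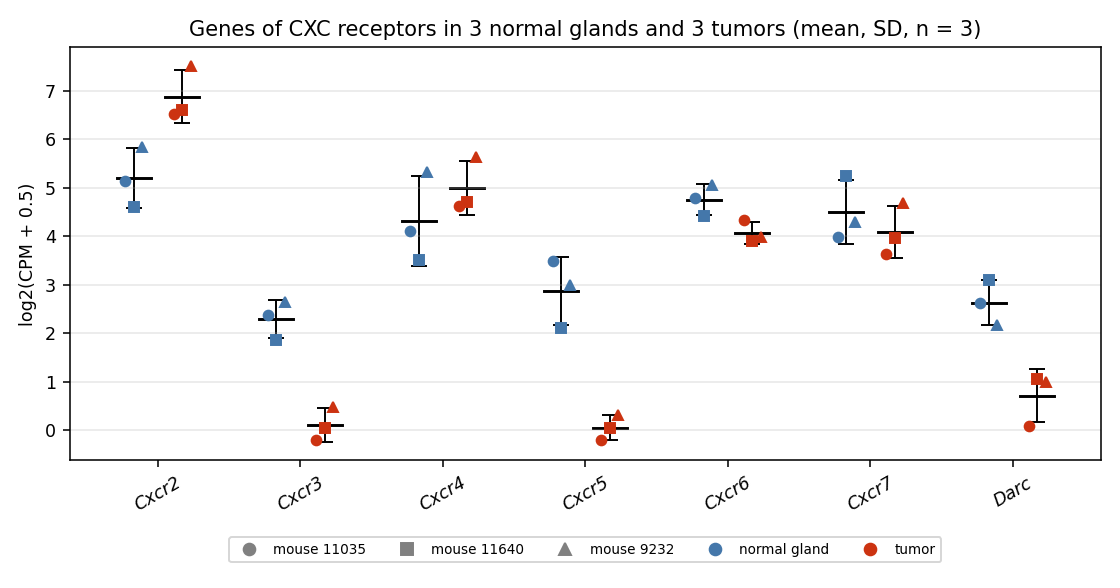
Level of each receptor gene of CXC chemokines as log2(CPM + 0.5) in 3 normal glands (blue) and 3 tumors (red), with the mouse as symbol shape and bars for the mean and SD (n = 3). *Cxcr2* was higher in tumors and *Cxcr3*, *Cxcr5* and *Darc* were lower.

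Among the 7 receptor genes analysed, 1 rose and 3 fell. The third that fell was *Darc*, a decoy receptor on venules and red cells that binds several of these ligands, from 5.92 ± 2.07 to 1.21 ± 0.566 CPM (SD, n = 3; -1.92, adjusted p = 0.00417). With gland M9232 alone it was not called (adjusted p = 0.105). *Cxcr1* was not analysed here. Of family genes not among the 9, *Cxcl11* (-0.26, adjusted p = 0.574) and *Cxcl17* (0.04, adjusted p = 0.953) were not called.

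Set side by side per kilobase of exon, the order of the levels turned over. In glands *Cxcl13* was at the top with 60.2 ± 24.1 CPM per kb, followed by *Cxcl12* (22.7 ± 1.11), *Cxcl9* (9.36 ± 5.29), *Cxcl16* (7.70 ± 1.80), *Cxcl14* (5.72 ± 1.77), *Cxcl1* (4.36 ± 2.96), *Cxcl10* (3.47 ± 1.52), *Cxcl5* (0.550 ± 0.581) and *Cxcl2* (0.253 ± 0.179). The ranges of *Cxcl13* and *Cxcl12* were apart, as were those of *Cxcl12* and *Cxcl9* and those of *Cxcl10* and *Cxcl5*, while the other neighbors in this order overlapped. In tumors *Cxcl5* led with 72.1 ± 12.6 CPM per kb, followed by *Cxcl1* (47.6 ± 16.6), *Cxcl2* (27.9 ± 14.6), *Cxcl16* (24.4 ± 5.0), *Cxcl13* (23.5 ± 27.4), *Cxcl14* (20.5 ± 6.58), *Cxcl9* (12.0 ± 8.85), *Cxcl10* (9.95 ± 5.18) and *Cxcl12* (5.82 ± 1.37). No neighbors in the tumor order were apart beyond their ranges. *Cxcl12* thus went from the second place to the last and *Cxcl5* from the eighth to the first.

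As a share of the summed CPM per kb of the 9 genes, *Cxcl1*, *Cxcl2* and *Cxcl5* made up 4.47% in M11035, 2.04% in M11640 and 5.88% in M9232. In the tumors they made up 71.4% in T11035, 60.9% in T11640 and 53.8% in T9232. *Cxcl12*, *Cxcl13* and *Cxcl14* made up 73.9% to 81.9% in glands and 11.6% to 26.1% in tumors. The sum itself was 80.8 to 150 CPM per kb in glands and 190 to 338 CPM per kb in tumors, so the lowest tumor was above the highest gland. *Cxcl9* and *Cxcl10* together held similar shares, 7.66% to 13.7% in glands and 7.03% to 11.2% in tumors.

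**Figure D4:**
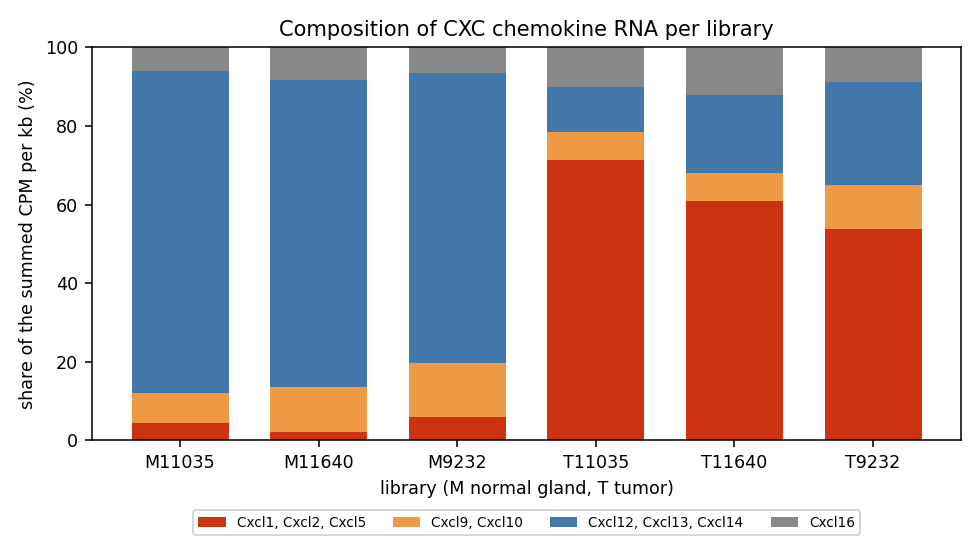
Share of each ligand class in the summed CPM per kb of the 9 CXC chemokine genes (vertical axis, %) in each library. *Cxcl1*, *Cxcl2* and *Cxcl5* (red) hold 2.04% to 5.88% in glands and 53.8% to 71.4% in tumors.

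Among tumors, T9232 held the highest level of 8 of the 9 genes, all but *Cxcl5*, whereas it was the highest tumor for 36.3% of 15241 genes. Among glands, M9232 was the highest for 6 of the 9 genes, against 31.7% of 15127 genes. T9232 was also the highest tumor for 5 of 7 receptor genes, the exceptions being *Cxcr6* and *Darc*. Of these 5, *Cxcr3* had 2 to 6 fragments per tumor and *Cxcr5* 2 to 5, near the floor of 3, so their order is uncertain. T9232 was the highest tumor for 6 of 10 inducer genes as well, the exceptions being *Tnf*, *Il6*, *Il17re* and *Ptgs2*. Its neutrophil marker sum of 1525 CPM was above the 901 and 1120 CPM of the other tumors.

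For each gene the profile most like it over the 6 libraries was found among 11401 genes by the root mean square difference of centered log2(CPM + 0.5). For *Cxcl16* this was *Ccdc120* (0.10), for *Cxcl12* *Pard3b* (0.11), for *Cxcl14* *Chi3l1* (0.11), for *Cxcl10* *Zbp1* (0.20), for *Cxcl9* *Slc11a1* (0.26), for *Cxcl1* *Smox* (0.29), for *Cxcl2* *Pglyrp3* (0.31) and for *Cxcl5* *Mmp13* (0.33). *Cxcl13* had the least similar partner, *Lrg1*, at 0.61. *Mmp13*, the collagenase gene, went from 3.30 to 11.1 CPM in glands to 688 to 812 CPM in tumors, and *Zbp1*, an interferon-induced nucleic acid sensor gene, from 12.0 to 24.6 CPM to 29.0 to 56.3 CPM.

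**Figure D5:**
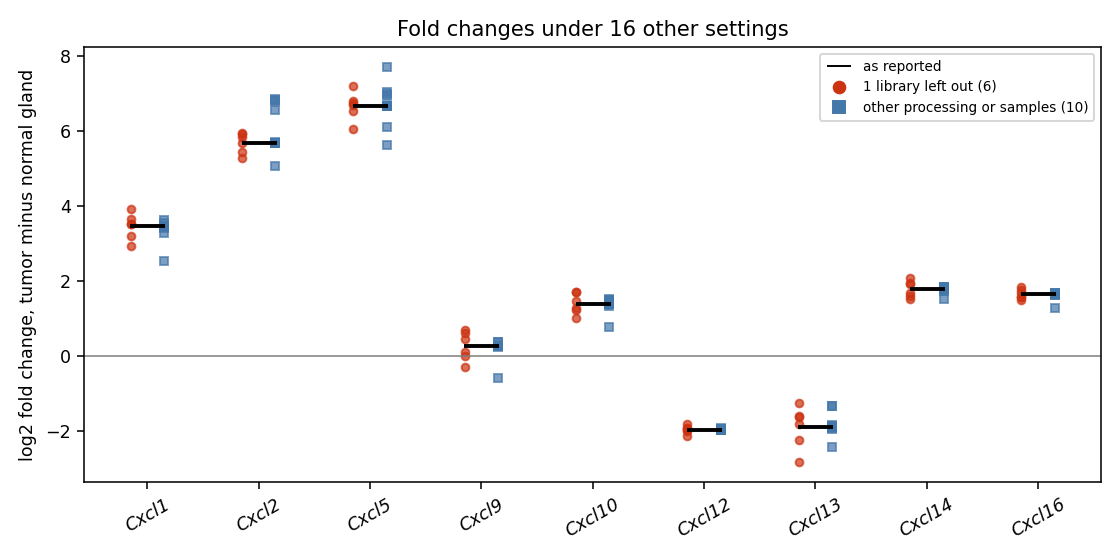
Log2 fold change, tumor minus normal gland, of each CXC chemokine gene as reported (black line), with 1 library left out (red circles, 6 per gene) and under 10 other choices of processing or samples (blue squares). *Cxcl9* crosses 0, and the other genes keep their sign.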

How the data were processed

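Total RNA of 6 libraries (3 tumors and the adjacent normal glands of the same mice) was sequenced by the authors in paired ends after NuGEN Ovation RNA-Seq V2 amplification. The authors mapped the reads to mm9 with TopHat (2.0.3), counted fragments per RefSeq gene with HTSeq (0.5.3p9), removed genes with under 10 fragments and computed CPM with edgeR (3.6.1). The deposited values are this CPM signal on effective library sizes. Every value was a whole multiple of 1 fragment (100% within 0.01 fragment), which gave back the fragments; the depth was 4750989 to 7806908 fragments per library, and floors cover counting error only.

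Tumors were compared with glands by limma (3.58.1, R 4.3.3) on log2(CPM + 0.5), letting the prior variance follow the mean level, with Benjamini-Hochberg adjustment over 15280 genes and no filter. DEGs had an adjusted p of at most 0.05 and a log2 fold change of at least 1 in size. With 3 libraries a side, 0.1 is the smallest two-sided p that exact permutation can reach. Libraries with the same number came from the same mouse, so the numbers pair the samples; the deviations of tumor and gland from their group means correlated at 0.107, 0.151 and 0.0168 over 14712 genes. Alternatives were a fit with mouse as a replicate block, pseudocounts of 0.1 and 1, a filter at a mean of 1 CPM, plain library totals, edgeR (4.0.16) with and without the block and DESeq2 (1.42.0) on the fragments, limma without trend, and leaving out each library. Gland M9232 alone against the tumors was added after seeing the data. The test by edgeR on recovered fragments called 4462 DEGs, against 4309.

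Lengths, positions and transcripts came from GENCODE vM1 (mm9), similarity from BLAST (2.17.0) and promoters from RefSeq (GRCm38.p6), where 7 of the 9 genes were matched in the promoter table used here. Named were all 9 genes, the receptors and other family genes, the largest changes and further genes of each list, the nearest genes and the most similar profile (mean of at least 5 CPM). The members and lists were chosen with earlier results of these data known, so list counts are descriptions. Protein sequences were not used here.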

Additional observations from a re-analysis of the deposited data

How the results depend on the processing

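*Cxcl1*, *Cxcl2*, *Cxcl5*, *Cxcl12* and *Cxcl16* kept their direction and call under all 16 other settings. Genes called numbered 1667 to 2270 higher and 1539 to 2224 lower in tumors, and 4 to 6 CXC genes were called higher. The number called lower was 2 in place of 1 on plain library totals, with the replicate block in limma or edgeR, and in the range of 1 to 2 when 1 library was left out, the added gene being *Cxcl13*. *Cxcl13* passed on plain library totals (-1.92, adjusted p = 0.0497), and with the replicate block in limma (-1.91) and edgeR (-1.84, adjusted p = 0.0203), and ranged from -2.84 to -1.27 with 1 library left out. The block changed no other call of the 9 genes. *Cxcl10* ranged from 1.01 to 1.70 with 1 library left out and lost its call in 4 of those 6 fits. *Cxcl9* ranged from -0.30 to 0.68, with -0.01 without gland M11035. With gland M9232 alone, whose spread was assumed to be like that of the tumors, *Cxcl9* was at -0.59, *Cxcl10* at 0.77 and *Cxcl14* at 1.52, the last pair without a call. Per kb of the longest transcript *Cxcl12* was at 32.9 CPM in glands and 8.45 CPM in tumors, and kept its rank, while *Cxcl10* passed *Cxcl1* in glands and *Cxcl9* in tumors. The cause of these shifts was not tested. At 3 fragments as the floor, gland levels of *Cxcl2* and *Cxcl5* bound their fold changes loosely.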

Other observations

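The spread between libraries of 1 tissue differed among the CXC genes. On the log2 scale the SD over the 3 tumors was 1.65 for *Cxcl13*, 0.98 for *Cxcl9*, 0.70 for *Cxcl10* and 0.69 for *Cxcl2*, against a median of 0.24 over 14712 genes, and 0.25 for *Cxcl5*. Over the 3 glands it was 1.15 for *Cxcl5* and 0.97 for *Cxcl1*, against a median of 0.28.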
